A study of Sus scrofa with 9 samples.

Results

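Whole blood taken 24 h after an oral dose of azide was compared with whole blood taken before feeding, across all probes of a porcine expression array. The members are the 3 arrays whose titles give blood at 24 h and the 3 whose titles give blood before the dose, 6 of the 9 arrays of the series. The animals were males of the Clawn miniature pig, bred small for laboratory use and kept specific pathogen free. Azide was given at 300 µg per kg, or 0.01 of the LD50 by the design text, with no word on its salt. The age is 7 months in one label field and 7 weeks in another. The before-feeding samples are labelled as controls. No pigs without azide were sampled at 24 h, so the dose, the feed, handling and time of day cannot be told apart. Whether equal replicate numbers mark the same animal is not stated, and p-values therefore measure the spread between these samples, which may be partly technical.

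Azide inhibits cytochrome c oxidase, which ends the respiratory chain of mitochondria, so that electrons no longer reach oxygen and the ATP synthase loses the proton gradient that drives it. RNA from whole blood is a mixture from neutrophils, lymphocytes, monocytes, platelets and young red cells that still hold RNA. A level in such a sample moves both with the number of cells of a type and with the RNA in each cell, and these cannot be told apart here.

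The values come from single designed probes of 60 bases. Of those described below, 9 are shown as examples, in the probe's own strand as the files give it and all in lower case. The first 3 belong to bright transcripts of the ribosome, the next 3 to nuclear proteins with lower values at 24 h, and the last 3 to receptors and a protease with higher values at 24 h.
RPS23: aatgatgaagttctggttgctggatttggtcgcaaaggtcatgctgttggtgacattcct
RPL10: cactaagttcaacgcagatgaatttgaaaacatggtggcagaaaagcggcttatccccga
FAU: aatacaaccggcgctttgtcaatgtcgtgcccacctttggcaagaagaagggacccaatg
DDX46: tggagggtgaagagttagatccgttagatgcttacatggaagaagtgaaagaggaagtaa
SMARCC1: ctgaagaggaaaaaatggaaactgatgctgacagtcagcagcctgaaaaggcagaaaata
SRSF11: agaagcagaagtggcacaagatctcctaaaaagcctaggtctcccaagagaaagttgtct
CXCR4: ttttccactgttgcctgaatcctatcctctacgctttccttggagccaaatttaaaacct
TLR9: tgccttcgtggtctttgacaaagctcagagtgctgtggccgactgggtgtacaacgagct
CTSK: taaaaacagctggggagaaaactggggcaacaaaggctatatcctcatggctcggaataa
Between 25 and 33 of the 60 bases of these probes are G or C.

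Of the 43803 non-control spots on an array, 39.9% to 46.6% lay well above background in the samples before feeding and 45.5% to 56.6% in those at 24 h. Unscaled signals were higher at 24 h, with a log2 75th percentile of 6.83, 6.78 and 7.70 against 6.36, 5.80 and 6.56. This difference of 0.87 gave an exact two-sided permutation p of 0.1, the smallest that 3 against 3 can give, and 0.23 after Benjamini-Hochberg adjustment over 7 array-level measures. Markers of blood cells were tested only if well above background on all 3 arrays of some group, so their detection was largely set in advance. Tested were 3 of 4 marker genes on the array for red cells, 3 of 4 for neutrophils and 5 of 6 for monocytes. For T cells 12 of 15 were tested, for natural killer cells 4 of 4 and for platelets 5 of 5. These tested genes were well above background on all 6 arrays, except that for T cells 11 of 12 were. The signal of the spike-in controls differed by -0.14 (exact permutation p = 0.5). Each group had its own slide, and the effects of slide and group cannot be told apart. Levels below are log2 processed signal minus the array's own 75th percentile, and changes are the mean at 24 h minus the mean before feeding with limma's standard error (n = 3 per group).

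No probe passed the threshold at 24 h: limma over 19783 tested probes gave 0 with a Benjamini-Hochberg adjusted p of at most 0.05 (0%), with a smallest adjusted p of 0.10. At an unadjusted p under 0.05, 1052 probes had higher and 1693 lower values at 24 h, which is 5.32% and 8.56% of those tested. On simulated arrays with the same probes, the test recovered 3% of probes changed by 1 and 43% of those changed by 2 on the log2 scale. Only a small share of the simulated probes was changed, and noise was drawn independently for each probe. Recovery on the measured arrays may therefore differ. On the deposited values, which the submitters had already brought to one distribution across arrays, 6 probes passed (0.0304%), all higher at 24 h. All 6 carry no gene name here, and before feeding their signal did not clear background on any array. The same number passed after quantile normalization of the scanner values. Of the other alternatives run, 2 gave calls: with limma's array weights 5445 probes passed, 2597 of them higher, with the third array before feeding at a weight of 8.27 against 0.57 and 0.42 for the other two, and centring on the spike-in controls, which moved the median of all tested probes to 0.99, gave 5743, 5740 of them higher. All genes below are therefore given as values that did not pass.

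Across the tested probes, the change on the scanner values followed brightness. Ranked by mean signal over the 6 arrays, the 4945 dimmest probes had a median change of 0.23. With a normexp background correction it was -0.23, the opposite sign. Of the tested probes, 507 were above background on no array before feeding and 10 on none at 24 h. The part of this filter in the value of the dimmest probes was not tested. The brightest 1% (198 probes) had a median change of -0.66. Of those 198 probes 192 had lower values at 24 h, and in 127 the 3 arrays at 24 h lay below all 3 before feeding. That share is 64.1%, against 19% of all tested probes that were lower without overlap and 7.5% that were higher. The median level of the brightest 1% was 9.14, 9.58 and 9.20 before feeding and 8.78, 8.90 and 8.57 at 24 h, so the groups did not overlap. Without 24 h replicate 3 the median change was -0.48, and without any other of the 6 arrays it lay between -0.75 and -0.53. The 95th percentile of log2 signal stood 4.25 ± 0.07 (SD, n = 3) above the 75th before feeding and 4.08 ± 0.07 (SD, n = 3) above it at 24 h (exact permutation p = 0.1, adjusted 0.23).

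The deposited values did not show that slope at the bright end. There the brightest 1% had a median change of -0.037 and the probes between the 95th and 99th percentile -0.019, against -0.66 and -0.29 on the scanner values. Of the 198 brightest probes 8 were lower and 14 higher without overlap on the deposited values, against 16% and 8.63% of all probes. Cyclic loess, which removes a change that follows brightness, left -0.23 for the brightest 1%. For this reason each gene is also given relative to probes of like brightness, that is, after subtracting the median change of the tested probes nearest to it in mean signal.

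**Figure D1:**
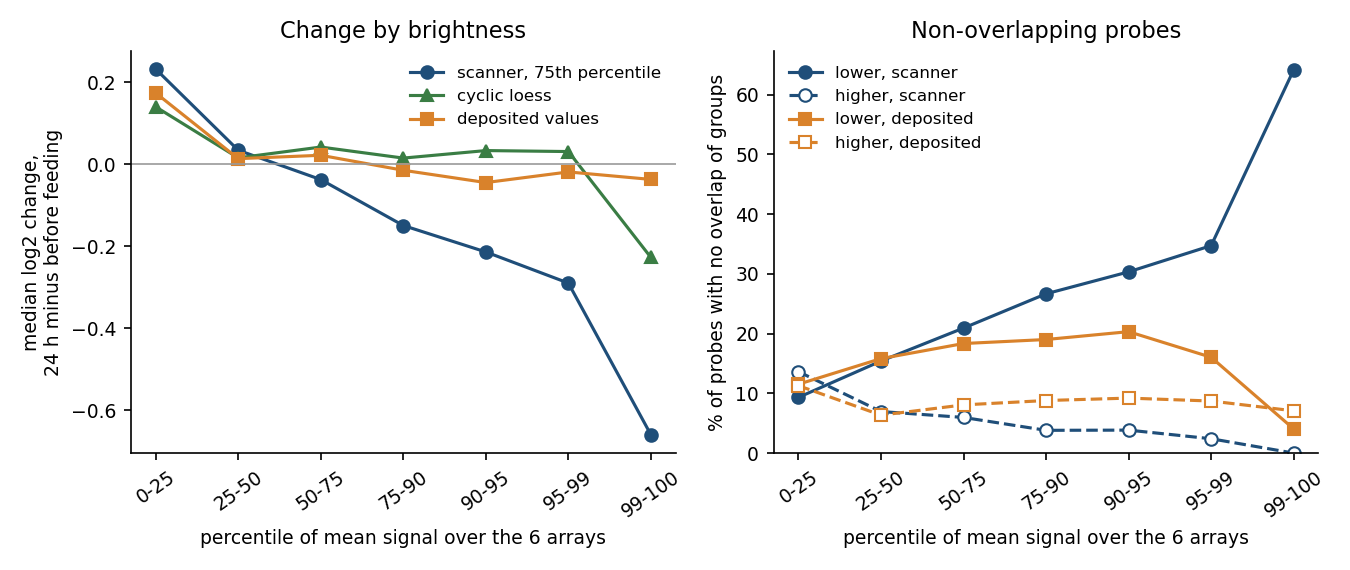
Left, median log2 change at 24 h against before feeding in 7 bands of mean signal, on scanner values scaled to the 75th percentile, after cyclic loess and on the deposited values; right, the percentage of probes in each band whose 3 arrays at 24 h lie all above or all below the 3 before feeding. On the scanner values the median runs from 0.23 in the dimmest band to -0.66 in the brightest 1%, where 64.1% of probes are lower without overlap. On the deposited values the brightest 1% stands at -0.037. With a normexp background correction, not drawn, the dimmest band stands at -0.23.

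The brightest named genes, listed by signal and chosen after their values were seen, were MHC class I antigen, TPT1, FTH1, FTL, SLA-1, UBB, RPLP2, TMSB10, bladder cancer-associated protein and RPL27A. All 10 had lower values at 24 h, between -0.89 for RPLP2 and -0.33 for UBB, relative to the 75th percentile. FTH1, the heavy chain of the iron store ferritin, read 10.99, 11.68 and 11.004 before feeding and 10.72, 10.78 and 9.81 at 24 h. The groups did not overlap, and the third array at 24 h was the lowest of the 6. Its change was -0.79 ± 0.34 (SE), but -0.26 relative to probes of like brightness and -0.14 on the deposited values. FTL, the light chain, stood at -0.81 ± 0.43 with overlapping groups and at -0.28 relative to probes of like brightness. UBB, which encodes polyubiquitin, and TPT1, a translationally controlled protein, had opposite signs on the 2 scales: they were -0.33 and -0.53 on the scanner values and 0.41 and 0.23 on the deposited values. MHC class I antigen, SLA-1 and bladder cancer-associated protein also turned, to 0.04, 0.29 and 0.30 on the deposited values. The rest of the 10 were lower on both scales.

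Ribosomal protein genes make up much of the bright end, with 38 of the 100 named probes among the brightest 1%. Of the 48 cytosolic ribosomal protein genes tested, out of 53 on the array, 46 had lower values at 24 h, against 50.9% of all tested probes, and 32 were lower without overlap, against 19%. None of the 48 passed the threshold, and 23 were lower with an unadjusted p under 0.05, against 8.56% of all tested probes. Their median change was -0.67 on the scanner values, beside -0.011 over all tested probes. The median level of the 48 genes was 8.56, 8.45 and 8.61 before feeding and 7.76, 7.999 and 7.95 at 24 h. Probes of like brightness had a median change of -0.53, which leaves a median of -0.21 for the ribosomal genes; 41 of 48 were below their like-brightness probes, against 49.9% of all tested probes. On the deposited values the median was -0.14, 38 of 48 were lower, against 47.3% of all probes, and 5 were lower without overlap, a smaller share than the 16% of all probes. The list thus kept its sign on the 3 scales, while most of its size on the scanner values was shared with probes of like brightness. These include ribosomal probes themselves, so the subtraction takes off part of the list's own change.

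Among the single ribosomal genes, RPL35, a protein of the large subunit, had the smallest p. Its level was 9.996, 10.19 and 9.72 before feeding and 9.04, 9.11 and 8.70 at 24 h. All 3 arrays at 24 h lay below all 3 before feeding, on the deposited values as well, which 15.2% of all probes did. The change was -1.02 ± 0.31 (SE; limma adjusted p = 0.24), and -0.49 relative to probes of like brightness. RPS21 of the small subunit read 9.11, 8.88 and 8.77 before feeding and 8.03, 8.05 and 7.92 at 24 h, a change of -0.92 ± 0.28 (-0.39 relative to probes of like brightness). RPS16 stood at -0.77 ± 0.24 on the scanner values and at -0.12 on the deposited values, where its groups overlapped. FAU, whose product is cut into a ubiquitin-like peptide and the ribosomal protein S30, read 10.02, 9.95 and 9.73 before feeding and 9.17, 9.24 and 8.87 at 24 h. RPS23 and RPL10 stood at -0.58 ± 0.29 and -0.65 ± 0.25, both without overlap on the scanner values. The only 2 members with higher values were RPL5 at 0.23 ± 0.39 and RPLP1 at 0.42 ± 0.44, both with overlapping groups.

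The factors that work with the ribosome did not share that pattern as a list. Of 18 translation factor genes tested, 7 had higher and 11 lower values; the median was -0.15 on the scanner values and 0.02 both on the deposited values and relative to probes of like brightness. EEF1G, a subunit of the elongation factor that delivers aminoacyl-tRNA, had the smallest p of the list. It read 10.14, 10.25 and 9.79 before feeding and 9.17, 9.11 and 9.03 at 24 h, a change of -0.96 ± 0.29 (SE; limma adjusted p = 0.24). Relative to probes of like brightness it was -0.43. Subunit 9 of translation initiation factor 3 stood at -0.70 ± 0.27, and it was lower without overlap on both scales. EIF4A2, an RNA helicase of the cap-binding complex, stood at 0.52 ± 0.46 with overlapping groups. The 15 tested genes of the mitochondrial ribosome and import machinery had a median of -0.17 (-0.31 to -0.063 with 1 array left out), and -0.065 relative to probes of like brightness.

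Genes of the respiratory chain, which azide acts on, had mostly lower values at 24 h on the scanner values, on the deposited values and relative to probes of like brightness, although none passed the threshold. With spike-in centring, where the median of all tested probes was 0.99, the medians of complex I, ATP synthase and the ribosomal genes were 0.67, 0.48 and 0.34, all below that of all probes, and that of the brightest 1% was 0.34. All 11 complex I genes tested had lower values, with a median of -0.34 on the scanner values, -0.25 on the deposited values and -0.24 relative to probes of like brightness. Of these, 5 were lower without overlap on the scanner values and 3 on the deposited values, against 19% and 16% of all probes. The list median was 4.02, 3.81 and 3.92 before feeding and 3.69, 3.50 and 3.79 at 24 h. NDUFS5, an accessory subunit, read 6.32, 6.34 and 6.38 before feeding and 5.52, 5.61 and 5.66 at 24 h. Its 2 groups were tight and far from overlap, with a change of -0.75 ± 0.23 (SE; limma adjusted p = 0.25) and -0.51 relative to probes of like brightness. ND6, a core subunit encoded in mitochondrial DNA, read 1.02, 1.24 and 0.60 before feeding and 0.16, -0.01 and 0.04 at 24 h. It stood at -0.89 ± 0.33, at -0.87 on the deposited values and at -0.92 relative to probes of like brightness.

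Of 7 cytochrome c oxidase genes tested, 6 had lower values, with a median of -0.42, and -0.31 relative to probes of like brightness. Only 1 of the 7 was lower without overlap on the scanner values and 1 on the deposited values, against 19% and 16% of all probes. The list median was 4.51, 3.53 and 3.24 before feeding and 2.41, 2.57 and 3.88 at 24 h, which overlap. Leaving out 1 array before feeding gave medians of -0.27 (the first), -0.29 (the second) and -0.66 (the third). COX7A2, a small nuclear-encoded subunit of the enzyme that azide blocks, read 5.81, 6.29 and 5.57 before feeding and 4.88, 5.31 and 5.08 at 24 h. The groups did not overlap on either scale, and the change was -0.80 ± 0.32 (-0.57 relative to probes of like brightness). COX7C had a change of the same size, -0.81 ± 0.50, but the third array at 24 h, at 3.88, lay above the 2 lower arrays before feeding, at 3.53 and 3.24. The assembly protein COX11 was the only member with higher values, at 0.11 ± 0.39, and its sign turned when the first or the third array before feeding was left out.

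All 9 ATP synthase genes tested had lower values on the scanner values, on the deposited values and relative to probes of like brightness, with medians of -0.53, -0.32 and -0.27. The list median was 6.18, 5.99 and 6.10 before feeding and 5.34, 5.31 and 5.49 at 24 h, with no overlap. ATP5I, a subunit of the membrane part, read 6.63, 6.33 and 6.25 before feeding and 5.28, 5.66 and 5.63 at 24 h, a change of -0.88 ± 0.32 (SE; limma adjusted p = 0.29). ATP5J2, another membrane subunit, stood at -0.63 ± 0.27 and was lower without overlap on both scales; of its other 2 probes, 1 was lower and 1 stood at 0.12 ± 0.38. Complexes II and III did not follow: of 4 genes tested, SDHD and SDHB, both subunits of succinate dehydrogenase, stood at 0.68 ± 0.36 and 0.30 ± 0.27, the core protein of complex III at -0.43 ± 0.29 and SDHA at -0.13 ± 0.25. SDHA was 0.04 on the deposited values, and another of its probes stood at 0.79 ± 0.35. SDHD read 4.94, 3.97 and 4.80 before feeding and 4.96, 5.05 and 5.74 at 24 h, so that its groups lay apart by 0.02 only, a distance chosen for mention after its values were seen.

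**Figure D2:**
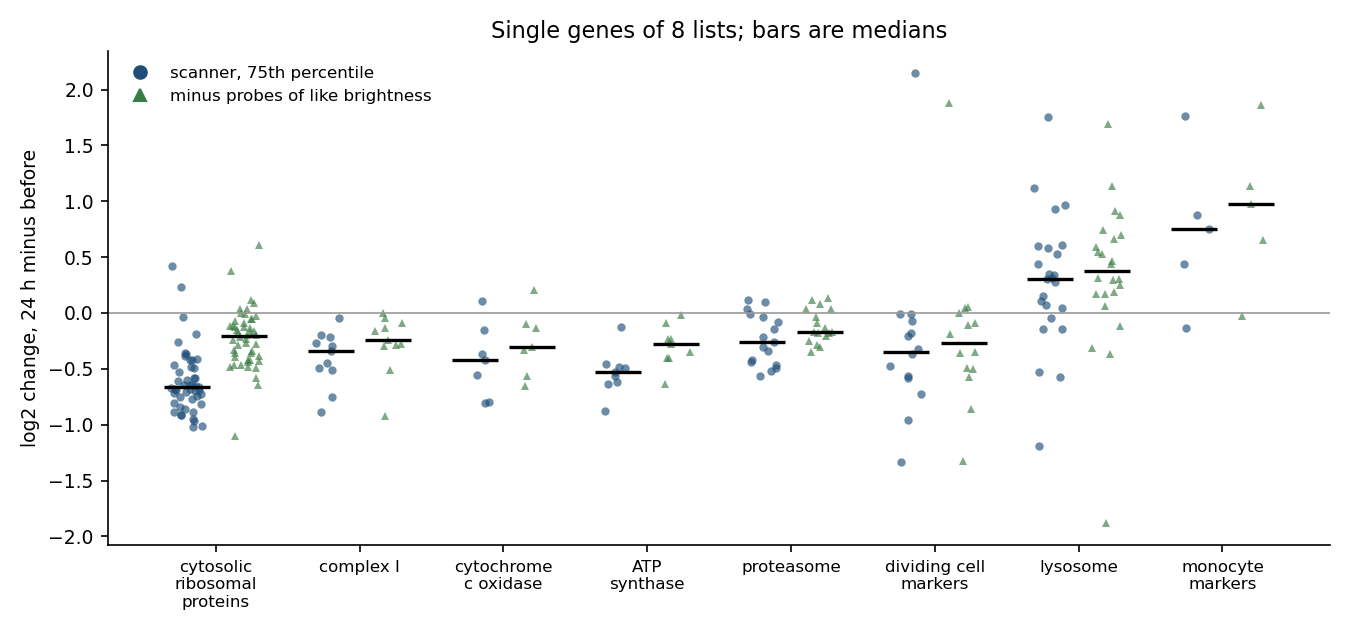
Log2 change at 24 h against before feeding of each tested gene of 8 lists (1 probe per gene), on the scanner values (circles) and after subtracting the median change of probes of like brightness (triangles); bars are list medians. The ribosomal median moves from -0.67 to -0.21 once brightness is taken off, the ATP synthase median from -0.53 to -0.27, and the lysosome median from 0.31 to 0.37.

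Proteasome genes, which encode the protease that degrades ubiquitin-marked proteins, had a median of -0.26, and -0.17 relative to probes of like brightness; 14 of 17 had lower values and 6 were lower without overlap, against 19% of all probes, and 3 on the deposited values, against 16%. The median was -0.16 when either the third array before feeding or the first at 24 h was left out. PSME1 and PSME2, the alpha and beta subunits of the proteasome activator, stood at -0.52 ± 0.25 and -0.47 ± 0.25, and PSMB10, a subunit of the immunoproteasome, at -0.56 ± 0.28. Of 11 ubiquitin enzymes 4 had higher values, and the list median was -0.39 on both the scanner and the deposited values. It was -0.17 when the second array before feeding was left out, and -0.20 when the first at 24 h was. Over every tested probe of the list, rather than 1 per gene, the median was -0.041. Ubiquitin carboxyl-terminal hydrolase 30 read 1.93, 2.47 and 1.73 before feeding and 0.88, 1.4995 and 0.69 at 24 h, a change of -1.02 ± 0.31 (SE; limma adjusted p = 0.24). UBE2J1, a conjugating enzyme of the endoplasmic reticulum, stood at -0.78 ± 0.27 and was lower without overlap on both scales.

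The 12 named genes with lower values and the smallest p had limma adjusted p-values between 0.14 and 0.22, so none passed. BAZ1B, which encodes a chromatin remodelling factor and is described in the files as transcription factor WSTF, was well above background on all 3 arrays before feeding and on none at 24 h; it was at least 1.76-fold lower. PSTK, the kinase that makes phosphoseryl-tRNA for selenocysteine, had a change of -2.11 ± 0.39 and -2.17 relative to probes of like brightness. CCND2, the cell cycle regulator cyclin D2, stood at -1.56 ± 0.36; its other 2 probes were lower as well, at -0.63 and -0.99. The helicase gene DDX46, which acts in splicing, stood at -1.32 ± 0.30, PHF3 at -1.32 ± 0.27 and CCAR1 at -1.40 ± 0.33. SMARCC1, a core subunit of the SWI/SNF remodeller, had a change of -1.46 ± 0.35, and -1.46 relative to probes of like brightness. The others were MST101 protein at -1.58 ± 0.29, meiosis related protein at -1.39 ± 0.31, RNF19A at -1.18 ± 0.28, the lysosomal protease CTSO at -1.19 ± 0.28 and SRSF11 at -1.17 ± 0.28. At 24 h CTSO was well above background on 1 array only and meiosis related protein on 2.

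SRSF11, a splicing factor rich in arginine and serine, read 5.13, 5.68 and 5.18 before feeding and 4.05, 4.51 and 3.91 at 24 h, with no overlap. Of its other 4 probes, 3 had lower values, between -1.15 and -0.52, and 1 had a higher value of 0.77 ± 0.46. RNF19A and ZRANB2 were also split between probes. The brighter RNF19A probe stood at -1.18 and the dimmer at 0.77, and the ZRANB2 probes stood at -1.02, -0.88 and 0.99. Of all 531 named genes with more than 1 tested probe, 188 had probes of both signs, so a gene's value here is that of its brightest probe.

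**Figure D3:**
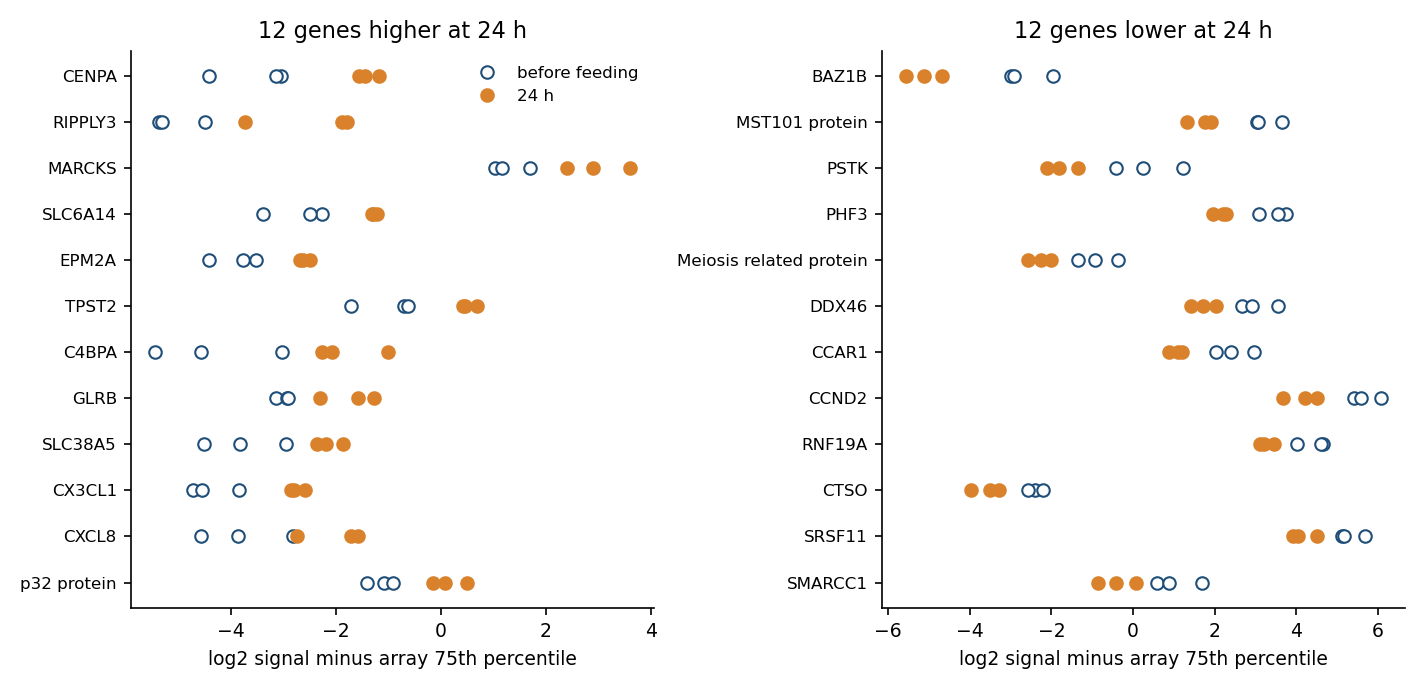
Level on each array (log2 signal minus the array's 75th percentile) of the 12 named genes per direction with the smallest p at 24 h against before feeding; open circles are the 3 arrays before feeding and filled circles the 3 at 24 h. In every gene shown the groups do not overlap, which was part of how the genes were chosen, and none passed the threshold.

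Of the 12 named genes with higher values and the smallest p, 7 had no array before feeding with a signal well above background and entered the test only through the arrays on which they were higher. These are given as bounds. CENPA, the histone variant of centromeres, was at least 2.61-fold higher at 24 h, GLRB, a glycine receptor subunit, at least 2.07-fold and C4BPA, a binding protein that restrains complement, at least 2.04-fold. The chemokine gene CXCL8, which draws neutrophils, was at least 1.74-fold higher and the chemokine gene CX3CL1 at least 1.04-fold. RIPPLY3 and EPM2A were at least 1.27-fold and 1.16-fold higher. With a normexp background correction RIPPLY3, EPM2A, GLRB and CX3CL1 had the opposite sign. The limma adjusted p-values of the 12 lay between 0.16 and 0.23.

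The other 5 were measured on some or all arrays before feeding. MARCKS, a membrane-bound substrate of protein kinase C that the files describe as 80K-L protein, read from 1.03 to 1.70 before feeding and from 2.41 to 3.60 at 24 h. Its change was 1.68 ± 0.37 (SE; limma adjusted p = 0.22), 1.81 on the deposited values and 1.73 relative to probes of like brightness. TPST2, an enzyme that adds sulfate to tyrosines, stood at 1.54 ± 0.35 and p32 protein at 1.27 ± 0.34. The amino acid transporter genes SLC6A14 and SLC38A5 stood at 1.44 ± 0.32 and 1.62 ± 0.39; the first was well above background on 2 arrays before feeding and the second on 1, and the second had the opposite sign with normexp.

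Markers of monocytes had higher values at 24 h, mostly on 1 array. Of 5 monocyte marker genes tested, all well above background on the 6 arrays, 4 had higher values, with a median of 0.75, and 0.97 relative to probes of like brightness. Their summed level, in multiples of the array's 75th percentile, was 103 to 143 before feeding and 153 to 359 at 24 h. Bright genes such as LYZ weigh most in that sum. The list median was 3.22, 4.30 and 4.49 before feeding and 3.74, 4.88 and 5.21 at 24 h, which overlap. CD163, a scavenger receptor for hemoglobin, read 1.38, 1.097 and 1.90 before feeding and 2.44, 2.31 and 4.92 at 24 h. The third array at 24 h stood far above the other two, and the change was 1.76 ± 0.80 (SE; limma adjusted p = 0.36). LYZ, the antibacterial enzyme lysozyme, read 6.55, 5.06 and 6.10 before feeding and 6.46, 6.04 and 7.83 at 24 h; CD14, a co-receptor for bacterial lipopolysaccharide, read 2.79, 4.30 and 4.49 before feeding and 3.74, 4.88 and 5.21 at 24 h. Both overlapped between groups. The median of the list was 0.35 without 24 h replicate 3, 0.33 and 0.47 without the first or second array before feeding, and 0.62 to 1.04 without any of the others.

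Lysosome genes had higher values as a list. These were 18 of 24 on the scanner values, 19 of 23 on the deposited values and 20 of 24 relative to probes of like brightness. The medians were 0.31, 0.31 and 0.37. The share with higher values over all tested probes was 49.1%. On the deposited values 52.7% of all probes were higher. Of the 24, 6 were higher without overlap and 2 lower, against 7.5% and 19% of all tested probes, and 4 were higher with an unadjusted p under 0.05, against 5.32%. With array weights the median was 0.016 and 11 of 24 had lower values. LAMP2, a glycoprotein of the lysosomal membrane, read -1.12, -2.82 and -1.10 before feeding and -0.15, -0.76 and 1.11 at 24 h. Its change of 1.75 ± 0.56 (SE; limma adjusted p = 0.26) was the largest of the list, and LAMP1 followed at 1.12 ± 0.49. ATP6V1A, the catalytic subunit of the proton pump, stood at 0.97 ± 0.36 and CTSK, the protease cathepsin K, at 0.93 ± 0.35, both without overlap on the scanner values. CTSK has no deposited value. In LAMP2, ATP6V1A and CTSK alike, the third array at 24 h was the highest of the 6. CTSO went the other way, as given above, with cathepsin F at -0.53 ± 0.28. The list median was 1.14, 1.599 and 1.75 before feeding and 1.61, 1.98 and 2.68 at 24 h, which overlap, and the median change was 0.12 without 24 h replicate 3 and 0.20 without the first array before feeding. The monocyte markers moved the same way on the same array; their part in the lysosome values was not tested.

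Receptors and enzymes of innate defence had mixed values. Of 12 genes of Toll-like receptors and their adaptors, 9 had higher values, with a median of 0.16, and 0.12 to 0.35 with 1 array left out. TLR9, a receptor for unmethylated DNA, read -4.50, -3.29 and -2.38 before feeding, where it was well above background on 1 array, and -2.22, -1.78 and -1.81 at 24 h. The groups lay apart, with a change of 1.45 ± 0.49 (SE; limma adjusted p = 0.28), and the sign turned with normexp. TLR4, the receptor for lipopolysaccharide, stood at 0.72 ± 0.63 and all 4 of its probes had higher values, while TLR7, a receptor for single-stranded RNA, stood at -0.58 ± 0.28 without overlap. The 3 phagocyte oxidase genes tested, whose complex makes superoxide, stood at 0.91 ± 0.53 (NCF1), 0.43 ± 0.47 (the large membrane subunit) and -0.14 ± 0.33 (CYBA, which was 0.35 on the deposited values). LTF, the neutrophil granule protein lactoferrin, read 3.17, 3.04 and 3.31 before feeding and 4.43, 4.07 and 5.24 at 24 h, without overlap and with a change of 1.41 ± 0.81, whereas the neutrophil protease MMP9 stood at -0.63 ± 0.54. At 6 h, on arrays compared with the same 3 before-feeding arrays, LTF stood at 4.50.

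Cytokine and chemokine genes split in both directions. Of 23 cytokine, NF-kB and receptor genes tested, 15 had higher values, with a median of 0.17, and -0.011 without the first array before feeding. IL2RG, the shared gamma chain of several interleukin receptors, read -1.99, -1.21 and -1.15 before feeding and -0.71, -0.29 and -0.31 at 24 h, a change of 1.01 ± 0.40. TNF stood at 0.51 ± 0.26, higher without overlap on both scales. Of 24 chemokine and receptor genes 12 had higher and 12 lower values. CXCR4, a receptor that holds leukocytes in bone marrow, read 2.97, 2.15 and 2.71 before feeding and 3.19, 3.83 and 4.203 at 24 h, a change of 1.13 ± 0.37 (SE; limma adjusted p = 0.26), and 1.25 relative to probes of like brightness. CCRL2 stood at 0.79 ± 0.29. Of the receptors and ligands that guide lymphocytes to lymph nodes, CCR7 read 5.88, 6.41 and 5.70 before feeding and 5.40, 5.06 and 4.56 at 24 h, and its ligand CCL19 read 3.44, 3.70 and 3.08 before feeding and 2.67, 2.51 and 2.34 at 24 h. Both lay apart between groups, with changes of -0.99 ± 0.37 and -0.90 ± 0.28, but a dimmer CCL19 probe stood at 0.28 ± 0.34. CCR9, a gut-homing receptor, stood at -0.79 ± 0.37.

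Markers of lymphocytes and other cells differed by gene. Of 12 T cell marker genes 5 had higher values, with a median of -0.09, and -0.03 relative to probes of like brightness. Their summed level, in which bright genes such as CCR7 and CD3D weigh most, was 183 to 190.0 before feeding and 104 to 131 at 24 h. On the deposited values the sums were 17007 to 21167 and 11332 to 15287, also apart. CD3D, a subunit of the T cell receptor complex, read 5.99, 5.29 and 5.48 before feeding and 5.14, 4.81 and 4.81 at 24 h, a change of -0.67 ± 0.45. Its dimmer probes stood at -0.05 ± 0.44 and -0.20 ± 0.33. All 4 natural killer and cytotoxic genes had lower values, with a median of -0.75, and -0.46 relative to probes of like brightness; without the third array before feeding it was -0.43. Natural killer cell receptor protein 1 had a change of -1.26 ± 0.57 without overlap, and NKL, a granule peptide of cytotoxic cells, -1.02 ± 0.57 with overlap. Tryptase, a mast cell protease, read 3.43, 4.01 and 4.44 before feeding and 2.64, 3.22 and 2.05 at 24 h, a change of -1.32 ± 0.44. The other 3 genes of the eosinophil, basophil and mast cell list had higher values, and the median of the 4 was 0.22. Among these 3 was another tryptase, MCT7, at 0.58 ± 0.52. HBE1, an embryonic globin gene that marks red cell RNA on this array, read 6.97, 7.51 and 7.15 before feeding and 6.74, 6.67 and 5.47 at 24 h (-0.91 ± 0.39). Another bright HBE1 probe stood at -0.18 ± 0.46, and at 0.01 on the deposited values. The 3 red cell genes tested had a median of -0.27, also relative to probes of like brightness, and -0.22 on the deposited values. The platelet markers ranged widely within groups, with a summed level of 75.5 to 366 before feeding and 132 to 340 at 24 h.

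Genes that respond to glucocorticoids or early to stimuli had 4 of 6 higher, all 4 without overlap on both scales (6.66% of all probes), with a median of 0.61. Besides CXCR4 these include CEBPB, a transcription factor of myeloid cells, which read 5.04, 5.41 and 5.34 before feeding and 5.45, 6.38 and 6.38 at 24 h (0.81 ± 0.50), and TXNIP, an inhibitor of thioredoxin, at 0.59 ± 0.33. JUN stood at -0.49 ± 0.46 and the glucocorticoid receptor gene NR3C1 at -0.28 ± 0.32. Of 22 redox defence genes 12 had higher values. SOD2, the mitochondrial superoxide dismutase, read 4.86, 5.001 and 5.30 before feeding and 5.50, 6.03 and 6.94 at 24 h, a change of 1.104 ± 0.57, and its other 2 probes stood at 1.32 and 1.01. GPX4, which reduces lipid peroxides, stood at -0.50 ± 0.26, lower without overlap. HMOX1, which breaks down heme, stood at 0.93 ± 0.72 with overlapping groups.

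In energy metabolism outside the respiratory chain, 6 of 9 genes of glycolysis and glucose transport had higher and 3 lower values. Their median was only 0.064, and 0.15 relative to probes of like brightness. Of the 9, 3 were higher without overlap, against 7.5% of all tested probes. PGK1, an ATP-forming enzyme of glycolysis, read 4.13, 4.32 and 4.36 before feeding and 4.54, 4.81 and 5.26 at 24 h (0.60 ± 0.32). GPI read -1.64, 0.27 and 0.29 before feeding and 0.34, 0.74 and 1.04 at 24 h (1.07 ± 0.57). CPT1A, which admits fatty acids into mitochondria, stood at 0.72 ± 0.37, and CPT1B at -0.36 ± 0.28 with 1 of its other 2 probes at 0.09 ± 0.27. Of 11 citric acid cycle genes 7 had higher values; SUCLG2 stood at -0.57 ± 0.30. Of 14 cholesterol and fatty acid synthesis genes 10 had higher values, among them ACACA, the rate-limiting enzyme of fatty acid synthesis, at 1.22 ± 0.44 with overlapping groups and 1 of 3 arrays above background before feeding (sign turned with normexp).

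Genes of dividing cells had lower values in 13 of 14, in 11 on the deposited values and in 10 relative to probes of like brightness. The medians were -0.35, -0.25 and -0.27. On the scanner values the exception was CENPA. Leaving out the third array before feeding gave a median of -0.20, and leaving out the first at 24 h gave -0.23. CDC20, an activator of the anaphase-promoting complex, read 1.54, 2.23 and 2.00 before feeding and 0.14, 1.16 and 0.47 at 24 h, a change of -1.33 ± 0.45 (SE; limma adjusted p = 0.27). A dimmer CDC20 probe stood at -0.49 ± 0.40. The kinetochore protein Spc24 stood at -0.96 ± 0.40, without overlap. All 4 histone H1 genes tested, which encode linker histones, had lower values, with the H1.3-like histone at -1.32 ± 0.40. Of 22 splicing factor and hnRNP genes 10 had higher and 12 lower values. The Sm protein D2 of the small nuclear ribonucleoproteins stood at -0.996 ± 0.29 and cold-inducible RNA-binding protein at -0.73 ± 0.30, whereas the 2 probes of SRSF4 stood at 0.55 ± 0.27 and -0.81 ± 0.28. Of 28 zinc finger genes 11 had higher values; zinc finger protein 161 stood at -1.35 ± 0.37 and ZRANB2 at -1.02 ± 0.26.

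Antigen presentation and interferon genes showed how much the scale matters. The 11 genes of the swine leukocyte antigen complex and antigen presentation had a median of -0.37 on the scanner values, 0.16 on the deposited values and 0.02 relative to probes of like brightness. SLA-DRB1, a class II chain, stood at -0.68 ± 0.31, and at -0.19 on the deposited values. TAP1, which carries peptides to class I molecules, stood at 0.71 ± 0.38, higher without overlap on both scales. The 20 interferon response genes had a median of 0.09, with 11 higher, and a median of -0.15 without the third array before feeding. USP18, which restrains interferon signalling, stood at 0.69 ± 0.29, with groups that overlapped on the scanner values but not on the deposited values. DDX58, a sensor of viral RNA, stood at 1.18 ± 0.49 with overlapping groups and 1 of 3 arrays above background before feeding. OASL stood at -1.16 ± 0.50. Immunoglobulin chains were split as well, with the IgG heavy chain at -1.34 ± 0.50 and another heavy chain probe at 0.31 ± 0.37. All 7 IgG heavy chain probes were lower, but the smallest of these changes were -0.37 ± 0.62, -0.33 ± 0.65 and -0.30 ± 0.63.

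**Figure D4:**
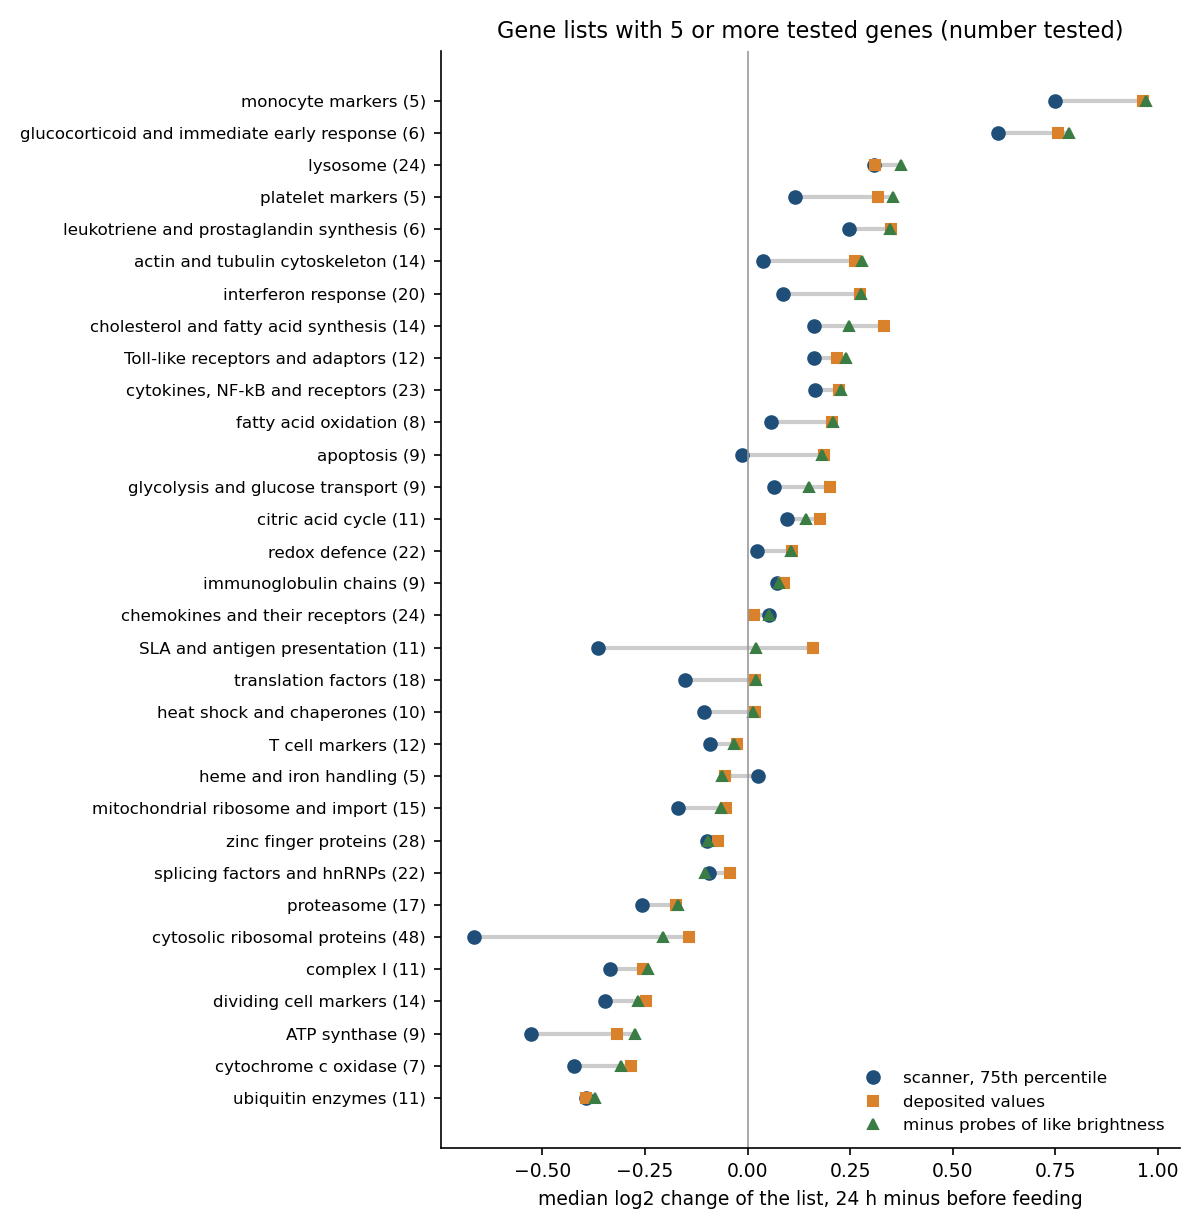
Median log2 change at 24 h against before feeding of each list with 5 or more tested genes, on the scanner values (circles), on the deposited values (squares) and minus probes of like brightness (triangles); the number of tested genes is in brackets. The swine leukocyte antigen list runs from -0.37 to 0.16 with the scale, whereas ATP synthase and lysosome keep their sign on all 3.

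Classes of probes that the gene names do not use also differed. Of the 360 tested probes whose description gives an alveolar macrophage library as the source of the transcript, 240 were above their probes of like brightness (66.7%), against 49.8% of all tested probes. Their median change was 0.17, and 0.22 relative to probes of like brightness. The 11 other libraries named in descriptions, with 3155 probes, had medians relative to like brightness between -0.15 for mesenteric lymph node and 0. The median level of the macrophage library probes above the array's median over all tested probes was 1.18, 0.82 and 1.02 before feeding and 0.93, 0.92 and 1.41 at 24 h, so the groups overlapped and the third array at 24 h was the highest. Of the 360 macrophage library probes, 42 (11.7%) were higher and 45 (12.5%) lower without overlap, against 7.5% and 19% of all tested probes. Only 33 of these probes have a gene name and none is on the lysosome list. Probes for RefSeq mRNAs stood at 0.14 relative to like brightness (1343 probes) and probes for assembled consensus sequences at -0.08 (4199 probes). The 371 probes with 30 or more G or C bases stood at 0.14.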

How the data were processed

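Whole-blood RNA, kept in PAXgene tubes, was labelled with Cy3 and hybridised to 1-colour Agilent porcine arrays, per the labels' protocols. The deposited scanner files hold processed signal, a linear intensity made by Agilent Feature Extraction, version 10.5.1.1 per the file headers and 9.5.3.1 per the submitters' processing notes. The series-wide table holds the authors' processed intensity on a linear scale. Its columns share a maximum of 210560 and keep each array's probe order (Spearman correlation of at least 0.99999), while how they were normalized is not stated.

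From each array's log2 processed signal its 75th percentile was subtracted. A probe was tested if some group had it well above background on its 3 arrays, which left 19783 for limma 3.58.1 in R 4.3.3, on all 9 arrays with group as the only term, and p-values were adjusted by Benjamini-Hochberg with a threshold of 0.05. Control spots were left out. The number of arrays limits the precision. The fit was tested on simulated data. Deviations from the group means of arrays with the same replicate number correlated at -0.07, 0.64 and 0.22. As these were not all over 0.1 and no label states a pairing, none was used.

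A symbol was found for 2941 of 43603 probes, 2008 through a RefSeq accession and 933 through the gene name column, and 4195 more were named by their description only. Each gene is represented by its brightest tested probe. Genes named in the text are the 12 per direction with the smallest p whose groups do not overlap and whose sign is the same on the deposited values, up to 3 per direction of each of 41 lists, and others said to be chosen after their values were seen. The members and lists were chosen with earlier results of these data known. A probe above background on no array of a group is given as a bound: the mean of the brighter group against, on each array of the dimmer group, the probe's own signal or, if higher, that array's dimmest signal to clear background. Alternatives were other scalings, the deposited values, a normexp background (offset 50), other probe filters, array weights, a trended robust fit, the 6 arrays alone, a replicate block and each array left out. A few genes of the lists are not reported here.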

Additional observations from a re-analysis of the deposited data

How the results depend on the processing

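The number of probes past the threshold was 0 with 75th-percentile scaling, 6 after quantile normalization, 6 on the deposited values, 5743 with spike-in centring and 5445 with array weights; it was 0 under the other alternatives run, each array left out in turn included. A fit with a replicate block also gave 0; no label states a pairing. The median change of the brightest 1% was -0.089 after quantile normalization, -0.23 after cyclic loess, -0.037 on the deposited values, -0.35 with normexp and -0.41 with array weights. The ribosomal median was -0.16, -0.27, -0.14 and -0.37 under the first 4 of these, -0.56 when scaled on probes above background on all arrays and -0.21 against probes of like brightness. For complex I the values that moved were -0.19 (cyclic loess), -0.10 (normexp) and -0.47 (no filter). The ATP synthase median was -0.33 (quantile), -0.42 (percentile of probes above background on all arrays), -0.26 (cyclic loess), -0.32 (deposited), -0.23 (normexp) and -0.27 (like brightness), and -0.64 to -0.40 with 1 array left out. The cause of these shifts was not tested. Of 222 named genes and probes, 159 kept their sign in every alternative run, with spike-in centring read relative to the median of all tested probes, and 63 did not, 35 of these with normexp and 22 with array weights. With 3 arrays per group, a low signal limits what can be read from genes near background: 507 tested probes were above it on no array before feeding.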

Other observations

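Other gene groups without a place above had values of both signs at 24 h. Of 14 actin and tubulin genes, 7 had higher values; CAPZA1, which caps actin filaments, stood at 0.84 ± 0.34 (SE, n = 3 per group) and TUBB, a tubulin, at -0.63 ± 0.33, both without overlap; the other TUBB probes stood between -0.53 and 0.07. Of 10 heat shock and chaperone genes 4 had higher values. HSP90AA1, a cytosolic chaperone, read 5.38, 6.70 and 5.70 before feeding and 4.96, 5.19 and 5.08 at 24 h, and stood at 1.63 above the before-feeding arrays at 6 h. Of its other 3 probes at 24 h, 2 had higher values, at 0.16 ± 0.65 and 0.25 ± 0.58. Of 9 apoptosis genes 4 had higher values, and none of the 9 lay apart between groups on either scale. HP, the hemoglobin-binding acute phase protein, stood at 0.82 ± 1.33 at 24 h and at 5.34 at 6 h; both comparisons share the before-feeding arrays.

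The unnamed probes with the smallest limma adjusted p (0.10) were 3 with higher values, at 1.93 ± 0.24, 2.39 ± 0.31 and 2.64 ± 0.35. None was above background on any array before feeding, and they were at least 1.53-fold, 1.31-fold and 1.39-fold higher at 24 h. Probes read from the 3' end of a clone had a median change of 0.18 (1452 probes) and those from the 5' end 0.05 (5355 probes). Their median signal percentiles were 28.1 and 41.4, and relative to probes of like brightness they stood at 0.11 and 0.02.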
